A study of Mus musculus with 6 samples.

Results

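Toll-like receptors (TLRs) and their partners were followed in mouse granulocytes through 10 genes chosen by symbol: the receptor genes Tlr1, Tlr2, Tlr4, Tlr6, Tlr7 and Tlr9, the adaptor gene Myd88, and the co-receptor genes Cd14, Ly96 and Ly86. All 10 were measured, each by 1 probe set annotated to that symbol alone, among 19937 genes on the array. The values were compared between 3 arrays labelled caffeine-plus and 3 labelled caffeine-minus. Both groups were granulocytes of C57BL/6J mice. The protocol gives both plates 15 mM caffeine for 4 hours and then 2 washes. The caffeine-plus plate next received actinomycin D, an inhibitor of transcription, at 2 µg/ml together with caffeine for 4 hours. The caffeine-minus plate received actinomycin D alone for the same time, although its source label calls the cells untreated with caffeine. The series uses caffeine to inhibit nonsense-mediated decay, the pathway that destroys mRNAs with premature stop codons. How the granulocytes were obtained and how many animals gave them is not given in the labels used here, nor is whether a replicate is an animal, a culture or a repeat of the assay. The p-values rest on the spread among these 6 arrays alone, and that spread may be technical.

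TLRs are membrane receptors for microbial products. TLR2 pairs with TLR1 or TLR6 at the cell surface to bind bacterial lipopeptides, TLR4 binds lipopolysaccharide with the help of CD14 and MD-2 (the product of Ly96), and TLR7 and TLR9 sense RNA and DNA in endosomes. All of these receptors signal through the adaptor MyD88 to NF-kappaB, and neutrophils use them to detect infection and to prolong their survival. MD-1, the product of Ly86, resembles MD-2 but partners the TLR-like protein CD180 instead.

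Of the 10 genes, 8 were lower in the caffeine-plus arrays, Cd14 was higher, and Tlr4 did not pass the test (limma, Benjamini-Hochberg adjusted p under 0.05 over all genes). Over all 19937 genes, 21.7% were lower and 16.2% higher by the same rule. Tlr1, Tlr6, Tlr7 and Ly86 fell at least 2-fold, as did 3.15% of all genes. The median difference of the 10 genes was -0.77 on the log2 scale, against -0.04 for all genes. The 10 genes were chosen with earlier results of these data known and were not tested as a set. In 8 genes every caffeine-plus array lay below every caffeine-minus array, which held for 26.3% of all genes, and in Cd14 every caffeine-plus array lay above, as in 19.5% of all genes. Each difference is given as log2 caffeine-plus minus log2 caffeine-minus ± its standard error, from 3 arrays in each group. Array values are relative, and in these bulk samples fewer cells of a type and less RNA per cell cannot be told apart.

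**Figure D1:**
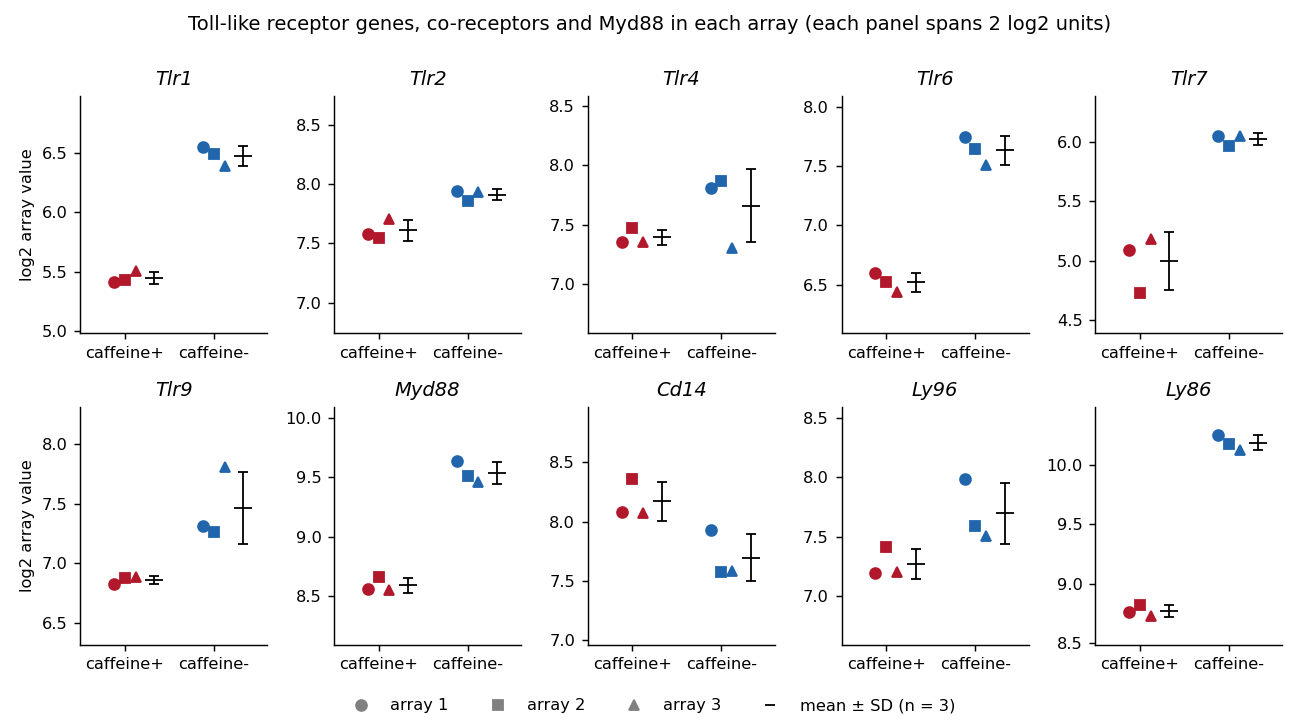
Log2 array value (vertical axis) of each of the 10 genes in every array, caffeine-plus in red on the left and caffeine-minus in blue on the right of each panel, with the mean ± SD of 3 arrays beside the points. The groups are apart in every panel except Tlr4, where caffeine-minus array 3 lies at 7.31, below the caffeine-plus arrays.

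Tlr1 and Tlr6, the receptors that form pairs with TLR2, fell by similar amounts. Tlr1 was at 5.42, 5.43 and 5.51 (log2 level) in the caffeine-plus arrays and at 6.55, 6.49 and 6.39 in the caffeine-minus arrays. No array of one group came within the range of the other, and the level was 2.03-fold lower (log2 difference -1.02 ± 0.10, limma adjusted p = 5.7e-07). Tlr6 stood at 6.60, 6.52 and 6.44 in the caffeine-plus arrays, against 7.75, 7.64 and 7.51 in the caffeine-minus arrays. Its groups were likewise apart, and it was 2.16-fold lower (-1.11 ± 0.10, limma adjusted p = 1.5e-07). The genes are neighbours on chromosome 5, with 19491 bases between their spans and no other protein-coding gene there (RefSeq, GRCm38.p6), and their coding sequences are known to be closely similar. How far the 2 probe sets share signal was not tested. The span of Tlr6 also overlaps Fam114a1, which was 1.65-fold lower (-0.72 ± 0.11). Tlr6 and Fam114a1 were read from separate probe sets, and whether their signals are independent was not tested.

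Tlr2, the shared partner of both, changed less. Its log2 level was 7.58, 7.54 and 7.71 in the caffeine-plus arrays and 7.94, 7.86 and 7.93 in the caffeine-minus arrays. All caffeine-plus values were lower, but the gap between the groups was small, at 1.23-fold (log2 difference -0.30 ± 0.08, limma adjusted p = 0.0095). Without caffeine-plus array 2 the call was lost (adjusted p = 0.056).

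Windows of the RefSeq promoter table (GRCm38.p6, 250 bases before and 50 after a start) were used for 6 of the 10 genes. These were Tlr1, Tlr2, Tlr6, Tlr9, Myd88 and Ly86. Tlr4, Tlr7, Cd14 and Ly96 were not shown. These windows were searched on both strands for the core of PU.1 sites (GAGGAA), a C/EBP form (TTGCNNAA), an interferon regulatory factor (IRF) form (GAAANNGAA), a kappaB form (GGANTTTCC), AP-1 (TGANTCA) and the cAMP response element (TGACGTCA). Shown are windows with a match from the neighbours Tlr1 and Tlr6, from Myd88, and from Ly86, the gene with the largest fall of the 10. Each reads 5′ to 3′ on the gene's strand, and capitals mark every match.
Tlr1 (chr5:64933509-64933808, minus strand): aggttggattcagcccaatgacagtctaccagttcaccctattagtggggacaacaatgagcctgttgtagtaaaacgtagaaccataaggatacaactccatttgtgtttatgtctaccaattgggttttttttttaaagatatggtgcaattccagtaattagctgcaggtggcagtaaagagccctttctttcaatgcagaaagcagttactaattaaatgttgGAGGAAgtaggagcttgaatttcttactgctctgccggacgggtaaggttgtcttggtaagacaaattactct
Tlr6 (chr5:64959117-64959416, minus strand): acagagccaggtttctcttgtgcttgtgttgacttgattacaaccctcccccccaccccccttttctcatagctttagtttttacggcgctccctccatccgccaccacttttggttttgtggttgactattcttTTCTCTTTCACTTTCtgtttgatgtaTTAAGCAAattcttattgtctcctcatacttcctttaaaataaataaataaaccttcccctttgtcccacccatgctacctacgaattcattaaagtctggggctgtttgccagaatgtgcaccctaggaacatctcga
Myd88 (chr9:119339969-119340268, minus strand): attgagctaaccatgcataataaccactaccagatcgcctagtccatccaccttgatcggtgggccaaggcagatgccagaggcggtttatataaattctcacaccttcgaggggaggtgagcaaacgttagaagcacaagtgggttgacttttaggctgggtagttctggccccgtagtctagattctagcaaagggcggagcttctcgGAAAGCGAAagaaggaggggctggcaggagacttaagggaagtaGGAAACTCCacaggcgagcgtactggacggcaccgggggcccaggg
Ly86 (chr13:37345095-37345394, plus strand): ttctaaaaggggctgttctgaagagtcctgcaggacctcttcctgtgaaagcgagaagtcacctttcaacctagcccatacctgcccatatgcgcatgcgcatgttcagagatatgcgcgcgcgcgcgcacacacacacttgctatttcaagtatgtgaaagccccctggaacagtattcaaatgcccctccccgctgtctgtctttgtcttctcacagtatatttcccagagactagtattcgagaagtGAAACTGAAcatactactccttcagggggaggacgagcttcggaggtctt
The Tlr1 window has a PU.1 core whose first base lies at -23 from the start. The Tlr6 window holds 2 overlapping IRF matches and 1 C/EBP match, and the Myd88 window has an IRF match that begins at -40 and a kappaB match that begins at base 5 after the start. The Ly86 window has 1 IRF match, which begins at base 1 of the transcript. Tlr1 and Tlr6 each have 1 further window, without a match. The only window of Tlr2 has no match, while the Tlr9 window has 2 PU.1 cores and 1 AP-1 match at -58. Over all 32851 windows of the table, 28.3% hold the PU.1 core, 10.8% the C/EBP form, 8.56% the IRF form, 7.81% AP-1, 1.79% the cAMP response element and 1.25% the kappaB form. No motif was shared by all 6 genes. The matches are descriptions of letters, and binding was not measured. Both groups were under actinomycin D while they differed in caffeine, and a link between any match and a difference was not tested.

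Among the endosomal receptors, Tlr7 fell the most. Tlr7, which senses single-stranded RNA, was at 5.09, 4.73 and 5.18 (log2 level) in the caffeine-plus arrays and at 6.05, 5.96 and 6.05 in the caffeine-minus arrays. The caffeine-minus arrays were tight and the caffeine-plus arrays spread more, with array 2 lowest, and the level was 2.03-fold lower (log2 difference -1.02 ± 0.12, limma adjusted p = 5.2e-06). Tlr9, the receptor for unmethylated CpG DNA, had 6.82, 6.87 and 6.88 in the caffeine-plus arrays, against 7.31, 7.26 and 7.81 in the caffeine-minus arrays. Here caffeine-minus array 3 stood above the other arrays of its group, and the level was 1.52-fold lower (-0.60 ± 0.13, limma adjusted p = 0.0010). Without that array the difference was -0.43 and still passed.

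Other mouse TLR genes mostly did not pass. Of 6 listed, 4 were measured, and 1 of them fell (21.7% of all genes did) while 3 did not pass. Tlr13, which recognises bacterial ribosomal RNA in endosomes, was 1.49-fold lower (log2 difference -0.58 ± 0.10, limma adjusted p = 0.00028), with 5.51, 5.34 and 5.42 in the caffeine-plus arrays and 6.04, 6.05 and 5.91 in the caffeine-minus arrays. The neighbour of Tlr7 on the X chromosome, Tlr8, differed by 0.08 ± 0.11. The double-stranded RNA receptor gene Tlr3 differed by 0.05 ± 0.10, and Tlr12, whose product binds profilin of protozoan parasites, by -0.04 ± 0.14. Scanner detection calls were not used here, so low values on these probe sets do not show that a transcript was missing, and dim values compress differences.

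**Figure D2:**
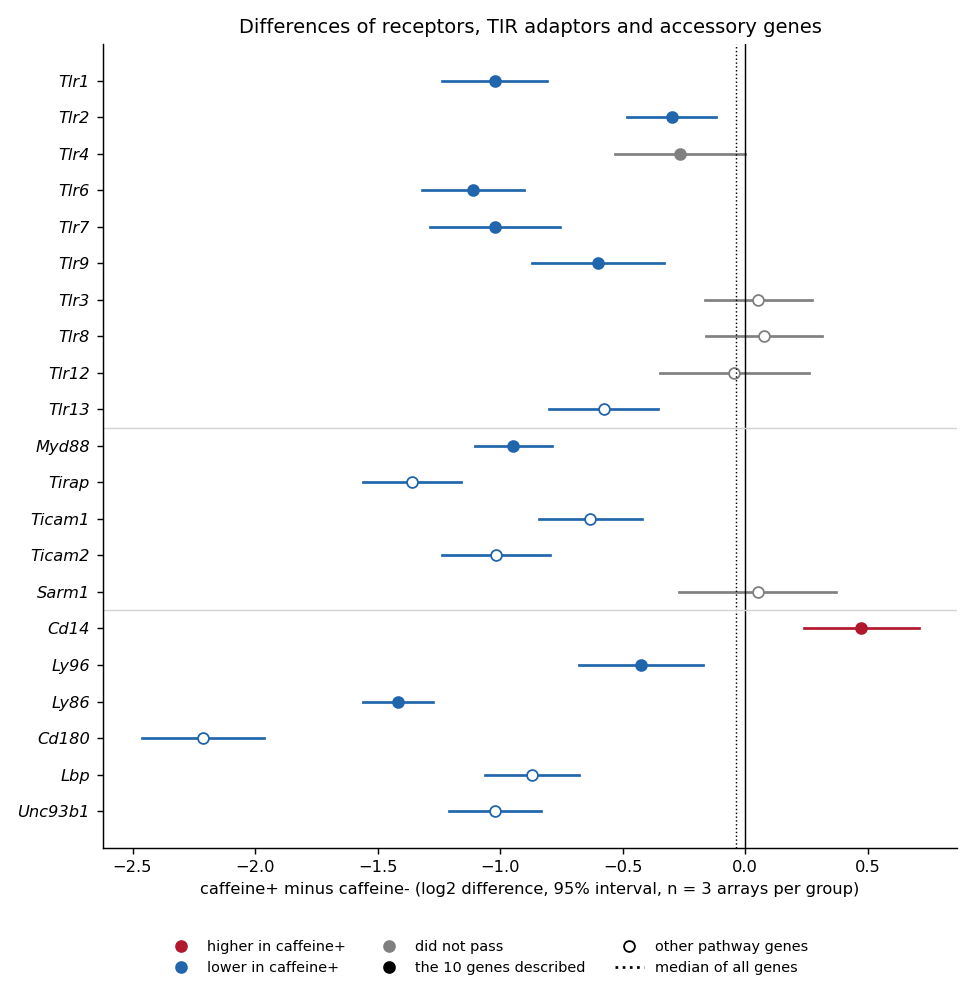
Caffeine-plus minus caffeine-minus log2 difference (horizontal axis) with its 95% interval for receptors (top), TIR adaptors (middle) and accessory genes (bottom), n = 3 arrays per group, where filled points are the 10 genes described and open points other pathway genes. Blue points passed the test as lower in the caffeine-plus arrays, from Tlr2 at -0.30 to Cd180 at -2.21. Cd14 at 0.47 is the only gene drawn that passed on the right. The open accessory genes, Cd180, Lbp and Unc93b1, were picked from their list, and all fell. Of the 16 trafficking and accessory genes measured, 8 fell. Slc15a4 (0.76), Ctsk (0.66) and Ap3b1 (0.37) rose and are not drawn, and these 3 were named with their values known.

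The lipopolysaccharide receptor is encoded by Tlr4, Ly96 and Cd14, and its genes did not move alike. Tlr4 lay at 7.36, 7.47 and 7.36 (log2 level) in the caffeine-plus arrays and at 7.81, 7.87 and 7.31 in the caffeine-minus arrays. Caffeine-minus array 3 lay below all 3 caffeine-plus arrays while the other 2 stood above them, and the difference of -0.27 ± 0.12 did not pass (limma adjusted p = 0.12, 95% interval -0.53 to 0.00070). Without caffeine-minus array 3 it was -0.44 and passed (adjusted p = 0.00075), without caffeine-minus array 2 it was -0.16 (adjusted p = 0.40), and with the replicate number as a block it passed (adjusted p = 0.044).

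Ly96, whose product MD-2 holds the lipid part of lipopolysaccharide, had 7.20, 7.42 and 7.20 in the caffeine-plus arrays, against 7.99, 7.59 and 7.51 in the caffeine-minus arrays. Caffeine-minus array 1 was the highest and the groups nearly met, at 1.34-fold lower (log2 difference -0.43 ± 0.12, limma adjusted p = 0.0090). Without caffeine-minus array 1 the difference was -0.28 and the call was lost (adjusted p = 0.050267), and it was also lost with every probe set tested (0.056).

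Cd14, which passes lipopolysaccharide to the TLR4 complex, was the single rise among the 10 genes. Its log2 level was 8.08, 8.36 and 8.07 in the caffeine-plus arrays and 7.93, 7.58 and 7.59 in the caffeine-minus arrays. All caffeine-plus values were higher, although caffeine-minus array 1 came close, and the difference was 0.47 ± 0.11, or 1.39-fold higher (limma adjusted p = 0.0023). The rise passed in all 16 alternative settings run, with differences between 0.38 and 0.59. Lbp, the gene of the serum protein that delivers lipopolysaccharide to CD14, was 1.83-fold lower (-0.87 ± 0.09) and was named with its value known.

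Ly86 and its partner Cd180 had the largest falls among the 10 genes and the 16 trafficking and accessory genes measured. Ly86 was at 8.77, 8.82 and 8.73 (log2 level) in the caffeine-plus arrays, against 10.25, 10.18 and 10.13 in the caffeine-minus arrays. The arrays of each group lay close together and the groups far apart, at 2.67-fold lower (log2 difference -1.42 ± 0.07, limma adjusted p = 2.7e-10). Only 1.04% of all genes had a lower difference. Cd180, a leucine-rich repeat protein that controls TLR4 signalling and is best known from B cells, had 6.22, 6.37 and 6.73 in the caffeine-plus arrays and 8.74, 8.54 and 8.67 in the caffeine-minus arrays. It was 4.64-fold lower (-2.21 ± 0.12, limma adjusted p = 8.4e-10), with no overlap between the groups.

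Myd88, the adaptor of nearly all TLRs and of the IL-1 receptor family, was 1.93-fold lower (log2 difference -0.95 ± 0.07, limma adjusted p = 4.3e-08). It stood at 8.56, 8.66 and 8.55 in the caffeine-plus arrays and at 9.64, 9.51 and 9.46 in the caffeine-minus arrays, with the groups clearly apart. The other adaptors with a TIR domain, the module through which receptor and adaptor bind, were read alongside. Tirap, the bridge between surface TLRs and MyD88, was 2.57-fold lower (-1.36 ± 0.09, limma adjusted p = 1.2e-08), with 7.01, 7.05 and 7.15 in the caffeine-plus arrays against 8.52, 8.51 and 8.26 in the caffeine-minus arrays. Ticam1 (TRIF) and Ticam2 (TRAM), adaptors of the interferon branch, were 1.55-fold and 2.02-fold lower, and Sarm1 differed by 0.05 ± 0.15. The choice to name Ticam1, Ticam2 and Sarm1 was made with their values known.

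In the list of TIR adaptors and signalling genes the directions were mixed. Myd88 is not a member of this list, but the adaptor genes Tirap, Ticam1, Ticam2 and Sarm1 are. Of 22 measured genes 10 rose, 8 fell and 4 did not pass (over all genes, 16.2% rose and 21.7% fell). The list's median difference was 0.10. Tbk1, the kinase that activates IRF3, was 2.22-fold higher (log2 difference 1.15 ± 0.07), at 9.72, 9.69 and 9.68 in the caffeine-plus arrays against 8.58, 8.55 and 8.52 in the caffeine-minus arrays. Peli1, a ubiquitin ligase of the IRAK proteins, was 2.48-fold higher (1.31 ± 0.10), and Ikbkb, the kinase that marks NF-kappaB inhibitors for destruction, was 1.97-fold higher (0.98 ± 0.09). The remaining rises were Tab3, Traf6, Irak2, Tab2, Irf7, Tollip and Irak3, between 0.98 and 0.29. Besides Tirap, Ticam1 and Ticam2, the falls were Irf5, Ikbke, Irf3, Irak1 and Ikbkg, between -0.84 and -0.31. These remaining rises and falls were again named with their values known. Ikbkg (limma adjusted p = 0.018) lost its call in 2 of 16 alternative settings.

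Among genes that carry TLRs to endosomes, process them or assist them, 8 of 16 measured fell, against 21.7% of all genes, 3 rose, a share near the 16.2% of all genes, and 5 did not pass. The median difference was -0.31. Unc93b1, the chaperone that nucleic acid-sensing TLRs need to leave the endoplasmic reticulum, was 2.03-fold lower (log2 difference -1.02 ± 0.09), at 7.74, 7.78 and 7.53 in the caffeine-plus arrays against 8.78, 8.70 and 8.64 in the caffeine-minus arrays. Ctss and Ctsb, cathepsins that can cleave the ectodomains of endosomal TLRs, were 1.97-fold and 1.85-fold lower. The third cathepsin gene of the list that passed, Ctsk, was higher (0.66 ± 0.08), and Ctsl differed by -0.0065 ± 0.06, and both were named with their values known. Hsp90b1, the folding chaperone of most TLRs, differed by -0.08 ± 0.04 (limma adjusted p = 0.23).

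Genes that TLR signalling is known to induce split in direction. Rises were called in 9 of the 25 measured and falls in 8 (over all genes, 16.2% and 21.7%), and the median difference was -0.01. The chemokine gene Ccl3 was 2.09-fold lower (log2 difference -1.06 ± 0.06) and Ccl5 1.82-fold lower (-0.87 ± 0.07). Ptgs2, the inducible cyclooxygenase gene, was 2.16-fold higher (1.11 ± 0.09), and Nfkbia, the gene of an NF-kappaB inhibitor, was 1.95-fold higher (0.96 ± 0.09). Ccl3 was at 9.79, 9.75 and 9.63 in the caffeine-plus arrays against 10.82, 10.81 and 10.73 in the caffeine-minus arrays, so the groups did not overlap.

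**Figure D3:**
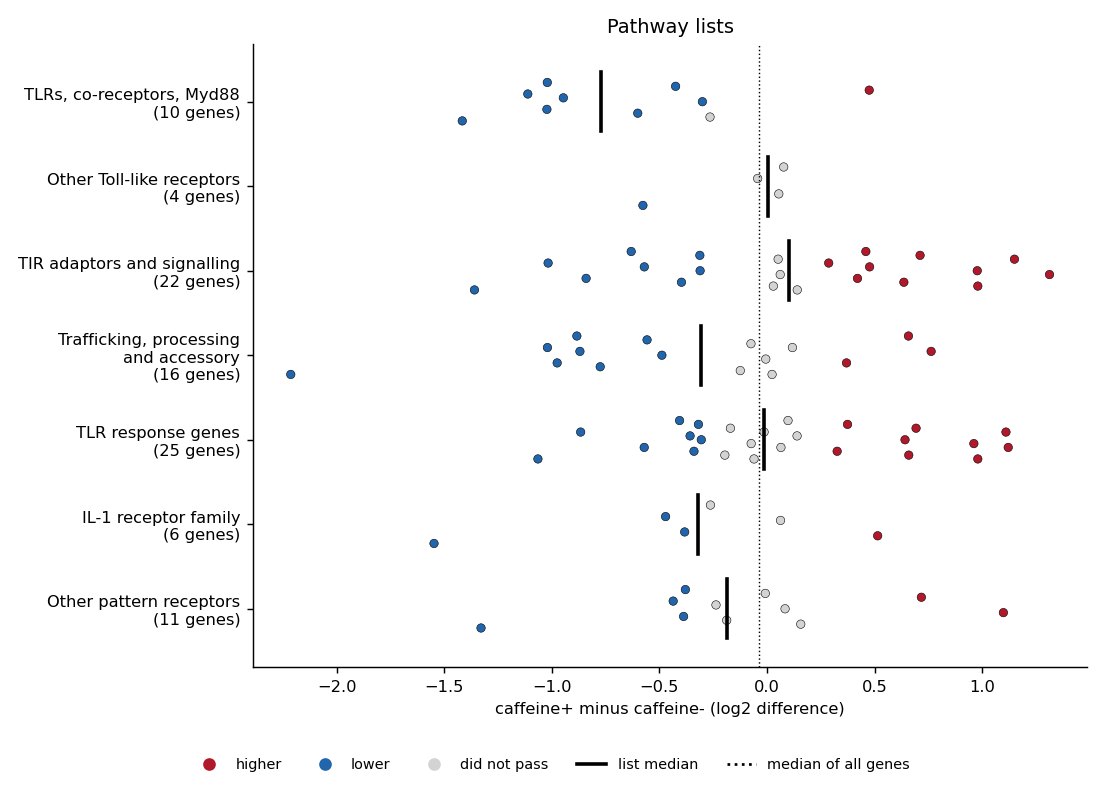
Caffeine-plus minus caffeine-minus log2 difference of every measured gene (points) in 7 lists (rows), coloured by the limma call, with the list median as a bar and the median of all genes, -0.04, as a dotted line. The top row has its median at -0.77, while TIR adaptors and signalling genes have theirs at 0.10 and TLR response genes at -0.01.

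Receptors that share the MyD88 route, the IL-1 receptor family, had 3 of 6 measured genes lower, 1 higher and 2 that did not pass, with a median of -0.32. Over all genes 21.7% were lower and 16.2% higher, so the single rise is at the share of all genes. Il1rl2, the IL-36 receptor gene, was 2.92-fold lower (log2 difference -1.55 ± 0.14), and Il18rap, a chain of the IL-18 receptor, 1.39-fold lower (-0.47 ± 0.09). Il18r1, its other chain, differed by -0.38 ± 0.13 with overlapping groups (limma adjusted p = 0.031), and this call was lost in 7 of 15 alternative settings. The decoy receptor gene Il1r2 was 1.43-fold higher (0.51 ± 0.10).

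Among pattern receptors outside the TLR family and their adaptors, 4 of 11 measured genes fell, 2 rose and 5 did not pass, with a median of -0.19. Falls were called in 21.7% of all genes and rises in 16.2%, near the share of rises here. Sting1, the adaptor of cytosolic DNA sensing, was 2.51-fold lower (log2 difference -1.33 ± 0.08), at 8.10, 8.11 and 8.06 in the caffeine-plus arrays against 9.42, 9.57 and 9.27 in the caffeine-minus arrays. Its upstream enzyme gene Cgas was 1.64-fold higher (0.72 ± 0.12). The inflammasome sensor gene Nlrp3 was 2.14-fold higher (1.10 ± 0.10) and the protease gene Casp1 was 1.30-fold lower (-0.38 ± 0.08).

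Marker genes moved in the same arrays, and their part in the receptor results was not tested. The counts of each marker list stand against 21.7% of all genes lower and 16.2% higher. All 16 granulocyte markers listed were measured. Their mean log2 levels over the 6 arrays ran from 6.45 (Mmp9) to 12.78 (Mpo, the myeloperoxidase gene). Of these markers, 15 fell and none rose by limma (0 rose at an unadjusted p under 0.05), and Retnlg did not pass (-0.05 ± 0.05). The list's median difference was -0.61. Mpo added the most to the summed level of the list on the linear scale. The sum was 18802 to 19439 in the caffeine-plus arrays and 26860 to 28180 in the caffeine-minus arrays. Monocyte and macrophage markers, 13 in number, had 7 falls and 2 rises, with summed levels of 5387 to 5566 in caffeine-plus and 5868 to 6292 in caffeine-minus arrays. Ccr2 was 2.98-fold lower and Cd68 and Klf4 were higher. Ctss, also counted among the trafficking genes, is among the falls, and the sums rest mostly on Cd68 and Ctss. The macrophage genes C1qa, C1qb, Ms4a7 and Mertk did not pass, with differences from -0.15 to -0.06.

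For dendritic cells 7 of 10 markers fell and none rose (0 at an unadjusted p under 0.05), with summed levels of 1285 to 1305 in caffeine-plus and 1629 to 1707 in caffeine-minus arrays. For B cells 3 of 9 markers fell and none rose (0 at an unadjusted p under 0.05), with sums of 523 to 579 in caffeine-plus and 865 to 883 in caffeine-minus arrays. The B cell falls were Cd79b (3.29-fold), Cr2 and Fcer2a, while Cd79a, Ms4a1, Pax5, Ebf1, Blk and Blnk did not pass. No T and NK cell marker of 9 passed by limma (2 were higher and 0 lower at an unadjusted p under 0.05), with sums of 417 to 512 in caffeine-plus and 441 to 474 in caffeine-minus arrays. Basophil, eosinophil and mast cell markers had 5 of 12 lower and 1 higher, with sums of 6387 to 6409 in caffeine-plus and 9187 to 10144 in caffeine-minus arrays. Prg2 and Mcpt8, the brightest of the list, made up most of these sums. They fell 1.55-fold and 2.88-fold, while Kit rose and 6 genes did not pass. No marker had a value of 0 in any array, since array values have a floor above 0.

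**Figure D4:**
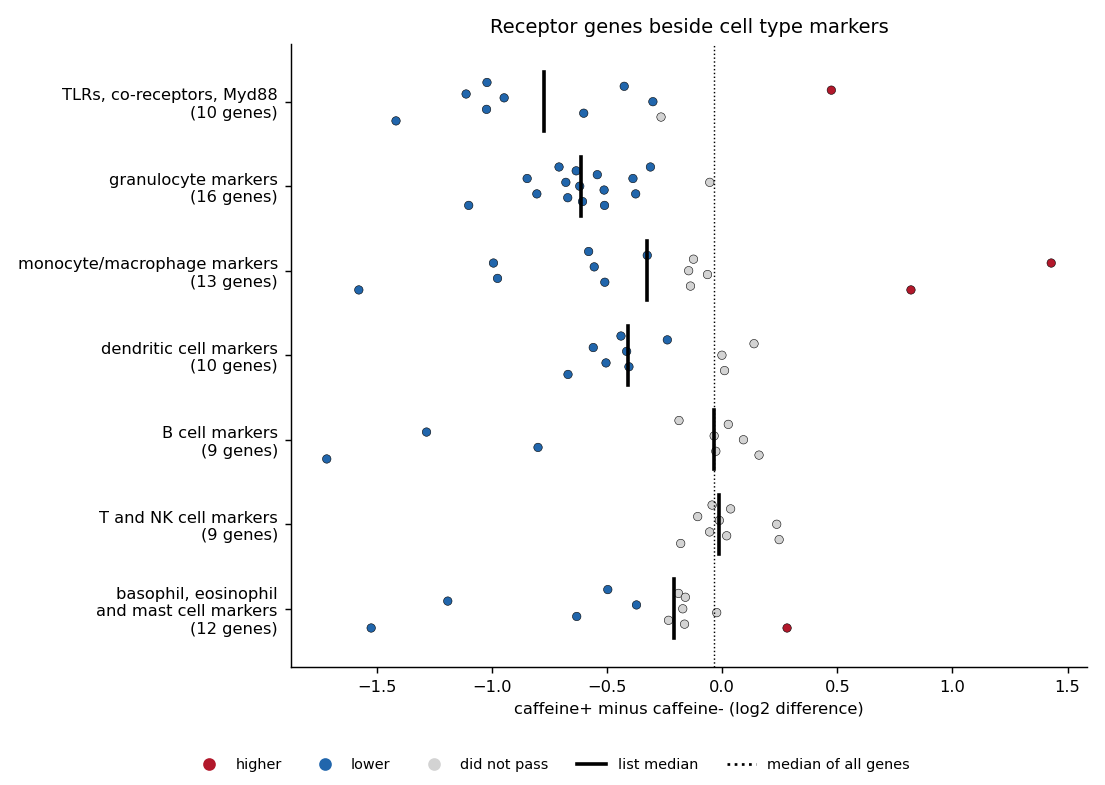
Caffeine-plus minus caffeine-minus log2 difference of the 10 receptor, co-receptor and adaptor genes (top row) and of the markers of 6 cell types (rows below), coloured by the limma call, with list medians as bars and the median of all genes dotted. Granulocyte markers have a median of -0.61 and T and NK cell markers one of -0.01, against -0.77 for the 10 genes.

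Facts of the arrays bear on every value above. Array medians ran from 6.49 to 6.60 on the log2 scale, with 34760 probe sets each. Arrays of the same group correlated at r = 0.986 to 0.992 across probe sets and arrays of different groups at 0.959 to 0.965, and no 2 arrays held identical values. Standard errors of the 10 genes ran from 0.07 to 0.13 on the log2 scale.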

How the data were processed

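The 6 arrays were Affymetrix Mouse Gene 1.0 ST arrays. Per the labels' protocols, biotinylated cDNA was made from 300 ng of Trizol-extracted total RNA. The deposited values were taken as log2 values normalized by the authors: no header names the unit, and they run from 1.90 to 13.98. The array's genome build and the steps of summarization, background correction and normalization, not given in the sources used here, stay unknown. A change in total mRNA per cell cannot be seen in such values, and precision is limited by the number of arrays.

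The platform annotation gives 21640 probe sets 1 symbol, 1321 several and 11799 none. A gene was read from its brightest probe set (19937 genes). The comparison used limma 3.58.1 under R 4.3.3, with lmFit and eBayes with an intensity trend, two-sided, no filter, Benjamini-Hochberg adjustment over all genes and a threshold of 0.05. On simulated data (19937 genes, 200 of them changed) it gave back 46% of log2 changes of 0.5 and 91% of those of 1, with 4.86% of calls false. The simulated noise was independent between arrays, and 7554 genes passed in the real data, so these rates may differ there.

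The members and lists were chosen with earlier results of these data known, and no list was tested. All 10 members and the measured genes of the list of other TLRs were named, and of each further pathway list the 4 genes with the smallest p. Genes named beyond that are marked, except cell type markers, Fam114a1 and Hsp90b1, also named with their values known. Alternatives were a replicate block, quantile normalization, median centring, 2 filters on dim genes, averaging over probe sets, testing every probe set, eBayes with no trend, robust variance, array weights, and leaving out each array.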

Additional observations from a re-analysis of the deposited data

How the results depend on the processing

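Of the 10 genes, Tlr1, Tlr6, Tlr7, Tlr9, Myd88, Ly86 and Cd14 kept their direction and their call in every alternative in which they were tested. Tlr1 and Tlr7 dropped out of the filter on genes above the median level, and Tlr7 also of the milder filter on dim genes. No difference of the 10 changed sign. Tlr4 passed with the replicate number as a block (-0.27, limma adjusted p = 0.044) and with array weights (-0.33, adjusted p = 0.022), and ran from -0.44 to -0.16 with single arrays left out (adjusted p from 0.00075 to 0.40). Ly96 lost its call with every probe set tested (-0.43, adjusted p = 0.056) and ran from -0.52 to -0.28 with single arrays left out. Tlr2 ran from -0.35 to -0.27 with single arrays left out. Where all 10 genes were tested, the count that were lower ran from 7 to 9. It was 6 of 8 among genes above the median level and 7 of 9 under the milder filter, which left out Tlr1 and Tlr7 or Tlr7 by construction. In each alternative 1 was higher. The cause of the other shifts was not tested. Same-numbered arrays deviated from their group means with correlations of -0.03, 0.19 and 0.29. Arrays of unlike number were not compared in this way, so whether the numbers pair the arrays stays unknown. The main fit used no block, and the block changed no call of the 10 genes except that of Tlr4. Among the lists, 1 of the T and NK cell markers rose after quantile normalization and 2 after median centring. Without caffeine-minus array 3, 8 basophil, eosinophil and mast cell markers were lower. Median centring moved the median of all genes by 0.06 on the log2 scale, the furthest of the scalings run. Signal over background was not known for these probe sets, so falls of dim receptors such as Tlr7 are limited by it.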
